A study of Mus musculus with 30 samples.

Results

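Macrophages that had been held for 18 h in itraconazole and then given LPS were compared with itraconazole-pretreated macrophages harvested without LPS. The members were chosen by their labels alone: 3 libraries with LPS and 3 without, 6 of the 30 libraries of the series. All of these cells were bone marrow derived macrophages (BMDM) from C57BL/6 mice, grown from marrow in culture, and the labels number the mice 1, 2 and 3 in each group. The itraconazole and LPS group had 1 µM itraconazole for 18 h and then LPS at 10 ng/mL for 18 h, while the unstimulated group had the same pretreatment and a stimulation time of 0. Wild-type cells pretreated with 25-hydroxycholesterol (25HC, 5 µM) or OSW-1 (0.3 µM) for 18 h, and untreated cells, were each harvested with LPS and without it as well, 3 libraries a group. Untreated Ch25h knockout cells make up the rest of the series. Ch25h encodes the enzyme that makes 25HC, and the knockout cells are not analysed here. The labels name no vehicle, do not say whether itraconazole stayed on the cells during LPS, and give the stimulation time without a unit (read here as hours). Because the cells without LPS were harvested at time 0, the effect of LPS and that of the further 18 h in culture cannot be told apart in any comparison of cells with LPS against cells without it.

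LPS, an outer membrane component of Gram-negative bacteria, is handed by CD14 to the receptor TLR4 on the macrophage surface. One branch of the receptor's signalling runs through the adaptor MyD88 to NF-kB and switches on cytokines and chemokines, and another runs through TRIF and interferon beta to the interferon-stimulated genes. Itraconazole is an azole antifungal that also binds oxysterol binding protein (OSBP), a carrier that moves sterol from the endoplasmic reticulum to the Golgi, and 25HC and OSW-1 are other ligands of that protein. When sterol in the endoplasmic reticulum falls, the transcription factor SREBP2 raises the genes of cholesterol synthesis.

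Promoter windows of 7 genes are shown first, because the main groups of genes described below (cytokines, chemokines, interferon-stimulated genes, cell cycle genes and cholesterol synthesis genes) are known to be read through such elements. Each window runs from 250 bases before to 50 bases after the start of the gene in RefSeq on GRCm38.p6, 5′ to 3′ along the gene's strand, and capitals mark every match to the motif named for that gene. In Il6 (chr5:30012864-30013163, plus strand) and Cxcl1 (chr5:90890995-90891294, plus strand) the motif is a kB-like element, GGGA and TTCC with any 2 bases between them, with 2 overlapping matches in Cxcl1. Cxcl10 (chr5:92348840-92349139, minus strand) holds a kB-like element and an interferon response core, a pair of GAAA runs with any 2 bases between them, and Isg15 (chr4:156200769-156201068, minus strand) holds 3 overlapping matches to that core. Ccnb2 (chr9:70421505-70421804, minus strand) and Plk1 (chr7:122159185-122159484, plus strand) are marked for TTTGAA, the core of the cell cycle homology region (CHR), with 2 matches in Ccnb2. Hmgcs1 (chr13:119690101-119690400, plus strand) is marked for TCACNCCAC, a sterol regulatory element-like motif chosen after the data had been seen.
Il6: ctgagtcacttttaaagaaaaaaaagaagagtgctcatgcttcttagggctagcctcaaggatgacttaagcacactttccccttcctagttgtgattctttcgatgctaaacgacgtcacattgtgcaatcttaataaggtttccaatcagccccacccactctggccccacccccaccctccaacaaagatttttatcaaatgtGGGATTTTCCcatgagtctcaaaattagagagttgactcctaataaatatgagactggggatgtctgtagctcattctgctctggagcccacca
Cxcl1: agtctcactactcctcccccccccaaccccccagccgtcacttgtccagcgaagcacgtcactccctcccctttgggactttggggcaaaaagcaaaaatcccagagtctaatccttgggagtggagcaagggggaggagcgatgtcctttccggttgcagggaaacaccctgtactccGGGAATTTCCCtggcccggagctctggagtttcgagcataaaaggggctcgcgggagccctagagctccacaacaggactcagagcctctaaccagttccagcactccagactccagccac
Cxcl10: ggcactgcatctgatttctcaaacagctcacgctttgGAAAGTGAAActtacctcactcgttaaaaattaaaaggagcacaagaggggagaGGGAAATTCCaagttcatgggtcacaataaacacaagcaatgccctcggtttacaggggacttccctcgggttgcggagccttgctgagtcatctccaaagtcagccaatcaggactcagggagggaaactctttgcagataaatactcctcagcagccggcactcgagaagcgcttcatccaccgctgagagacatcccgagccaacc
Isg15: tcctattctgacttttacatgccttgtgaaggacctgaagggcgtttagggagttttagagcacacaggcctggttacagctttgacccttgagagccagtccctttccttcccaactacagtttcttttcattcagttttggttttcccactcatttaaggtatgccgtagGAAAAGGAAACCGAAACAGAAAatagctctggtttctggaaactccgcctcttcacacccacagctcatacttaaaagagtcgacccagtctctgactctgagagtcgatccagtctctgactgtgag
Ccnb2: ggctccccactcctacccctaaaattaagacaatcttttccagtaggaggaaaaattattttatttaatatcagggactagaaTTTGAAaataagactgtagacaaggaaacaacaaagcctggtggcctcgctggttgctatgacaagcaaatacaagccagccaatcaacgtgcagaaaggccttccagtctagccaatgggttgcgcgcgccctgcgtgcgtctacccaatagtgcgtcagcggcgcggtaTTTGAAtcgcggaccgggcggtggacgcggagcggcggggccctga
Plk1: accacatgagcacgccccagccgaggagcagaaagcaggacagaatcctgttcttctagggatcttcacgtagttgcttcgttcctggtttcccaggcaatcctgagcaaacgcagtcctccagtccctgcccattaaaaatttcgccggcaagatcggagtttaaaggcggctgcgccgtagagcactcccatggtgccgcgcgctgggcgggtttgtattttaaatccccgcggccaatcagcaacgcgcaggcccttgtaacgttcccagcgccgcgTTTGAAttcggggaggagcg
Hmgcs1: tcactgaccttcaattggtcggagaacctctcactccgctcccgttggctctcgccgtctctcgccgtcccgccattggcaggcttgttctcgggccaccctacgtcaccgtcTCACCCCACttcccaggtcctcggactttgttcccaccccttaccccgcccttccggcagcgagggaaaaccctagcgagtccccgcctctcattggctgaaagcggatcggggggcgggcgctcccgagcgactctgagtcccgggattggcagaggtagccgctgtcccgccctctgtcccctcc
Both strands were searched. A window was at hand for 27025 genes, and of these 1.63% hold the kB-like motif, 3.99% the interferon core, 20.2% the CHR core, 41.1% the CCAAT box and 1.44% the sterol element-like motif. Of the 10074 tested genes with a window, 1.79% hold the kB-like motif, 4.0% the interferon core, 14.4% the CHR core, 43.1% the CCAAT box and 1.44% the sterol element-like motif. Of the 400 genes called higher with LPS in itraconazole-pretreated cells by a log2 fold change of at least 3 (3.04% of genes tested), 297 had a window, of which 17 (5.72%) held the kB-like motif and 37 (12.5%) the interferon core. Of the 683 called lower by at least as much (5.18%), 496 had a window, of which 130 (26.2%) held the CHR core and 247 (49.8%) the CCAAT box. Among the gene lists used below, the interferon core was in 14 of 28 interferon-stimulated genes and 9 of 9 GBP and IRG genes with a window. The CHR core was in 14 of 20 mitosis genes and 4 of 22 replication genes. CCAAT was in 15 of 16 cholesterol synthesis genes, while the sterol element-like motif was in 1 of those 16, Hmgcs1. A match is a run of letters, and binding was not measured.

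The 3 itraconazole libraries with LPS held 36389256 to 38320082 counts and the 3 without LPS 31932504 to 37580268, in a series that ranges from 23656860 to 43922154. The 20 most abundant genes took 14.9 to 17.15% of counts with LPS and 12.61 to 13.19% without, and mitochondrial genes took 1.08 ± 0.118% and 1.792 ± 0.044% (SD, n = 3 each). All 8 macrophage markers were present in every library, with summed levels of 19500 to 32400 CPM with LPS (CPM, counts scaled to a common library size) and 19000 to 21700 without. Summed neutrophil markers stood at 3.04 to 11.7 CPM with LPS and 3.28 to 4.47 without, and the defining gene Ly6g was at 0 in both groups. T cell markers summed to 0.248 to 1.89 CPM with LPS and 4.3 to 6.85 without, nearly all of it Cd4, with Cd3d, Cd3g and Cd8a at 0 in both groups. B cell markers summed to 0.373 to 1.83 CPM with LPS and 4.75 to 5.67 without, mostly Cd79b, with Pax5 at 0. NK cell markers (0.0621 to 0.172 CPM with LPS and 0.997 to 2.54 without), mast cell markers (0, and 0 to 0.0489) and erythroid markers (0 to 0.0574, and 0 to 0.0559) were also near 0. Dendritic cell markers summed to 4.4 to 6.43 CPM with LPS and 0.503 to 0.807 without, mostly Ccr7 with LPS and mostly Zbtb46 without, and Xcr1 and Siglech were at 0 with LPS. Fibroblast markers (4.4 to 8.21 CPM with LPS, mainly Pdgfrb and Dcn, and 0.782 to 2.35 without) and endothelial markers (9.89 to 20.5 with LPS, mainly Kdr and Pecam1, and 4.5 to 7.88 without, mainly Kdr) were low, and Emcn was at 0. The part of these minor markers in the results was not tested.

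Mouse 3 stood apart from mice 1 and 2 after LPS. Among the 1596 genes called at least 2-fold higher in itraconazole-pretreated cells, the LPS library nearest to the unstimulated mean was that of mouse 3 in 1082 (67.8%), of mouse 1 in 316 and of mouse 2 in 198. Among the 2290 genes called at least 2-fold lower it was mouse 3 in 1193 (52.1%). The same lean was present in untreated cells, where mouse 3 was the nearest in 986 of 1520 higher genes (64.9%), and in 25HC-pretreated cells, where it was so in 956 of 1544 (61.9%). In OSW-1-pretreated cells the lean was weaker, with mouse 3 nearest in 721 of 1665 (43.3%) and mouse 1 in 586 (35.2%). Whether the lean reflects the animal, its cells or the handling was not tested. Results that change without this library are given both ways.

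Most of the measured transcriptome changed with LPS. Of 13173 genes tested, 8827 (67.0%) were called at an adjusted p under 0.05 in itraconazole-pretreated cells, 4403 higher (33.4%) and 4424 lower (33.6%). At least 2-fold changes were called for 1596 genes upward (12.1%) and 2290 downward (17.4%). The groups did not overlap, with all 3 LPS libraries above or below all 3 unstimulated ones, for 4660 genes upward (35.4%) and 4666 downward (35.4%). Without the LPS library of mouse 3 it was 4383 higher and 4479 lower. These directions are relative to TMM scaling, under which the median log2 fold change of all genes was -0.02. Scaling to total counts moved that median to -0.31 and gave 2784 higher and 6181 lower, so the higher share of calls went to 31.1%, against 49.9% with TMM. Because these are bulk libraries, fewer cells of a kind and less RNA per cell cannot be told apart. Adjusted p-values here and below are those of edgeR's quasi-likelihood test with Benjamini-Hochberg adjustment over all tested genes, changes are log2 fold changes ± standard error, per-library values are CPM on TMM-scaled libraries in the order of mice 1, 2 and 3, and levels are compared only within a gene.

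Inflammatory cytokines rose in the itraconazole-pretreated cells. Of 20 tested, 19 were called higher and 0 lower, with a median of 3.67, against -0.02 over all genes. Il1b, which encodes a fever-inducing cytokine, was at 12300, 11300 and 9690 CPM with LPS, against 1.8, 1.79 and 1.86 CPM without. The groups were far apart and the libraries within each close together (12.57 ± 0.51, adjusted p = 9.92e-17). Il1a, a related alarm cytokine, was at 3840, 3430 and 1000 CPM, against 0.332, 0.726 and 0.489 (12.40 ± 0.77, adjusted p = 4.56e-13), with mouse 3 lowest of the LPS libraries. Il6, whose product drives the acute-phase response, was at 391, 355 and 146 CPM, against 0, 0.112 and 0. Only 2 reads of Il6 were found in the 3 unstimulated libraries, and the ratio was 8750-fold with a 95% counting interval of 2420 to 72300. Tnf, the founding inflammatory cytokine of its family, was at 508, 411 and 111 CPM, against 56.8, 60.1 and 45.5, so its groups did not overlap although mouse 3 stood close to the unstimulated level (2.67 ± 0.44, adjusted p = 1.01e-05).

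Growth factors of the myeloid lineage were among the cytokines that rose. Csf3, the granulocyte growth factor, was at 4.85, 3.56 and 1.09 CPM with LPS and at 0 in all 3 libraries without it. Taking 3 reads over the unstimulated group as the floor, it was at least 61.7-fold higher. Csf2, the growth factor of granulocytes and macrophages, was at 3.42, 2.47 and 1.32 CPM, against 0 in all 3, at least 47.0-fold higher. Csf1, which sustains macrophages themselves, was at 122, 124 and 52.7 CPM, against 6.74, 6.98 and 10.4 (3.63 ± 0.33). Inhba, the subunit of activin A, was at 203, 158 and 63 CPM, against 0.19, 0.168 and 0.636 (8.70 ± 0.52, adjusted p = 2.03e-13). Il12b, the shared subunit of the cytokines that steer T cells, was at 49.1, 28.4 and 4.17 CPM, against 0.0475, 0 and 0, a ratio of 1580 with an interval of 283 to 62500. Mouse 3 was the lowest of the LPS libraries in each of these 5 genes. The anti-inflammatory cytokine Il10 was at 1.55, 2.01 and 1.09 CPM with LPS and 1.28, 1.96 and 1.81 without, with overlapping groups and no call (-0.12 ± 0.32, adjusted p = 0.768).

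**Figure D1:**
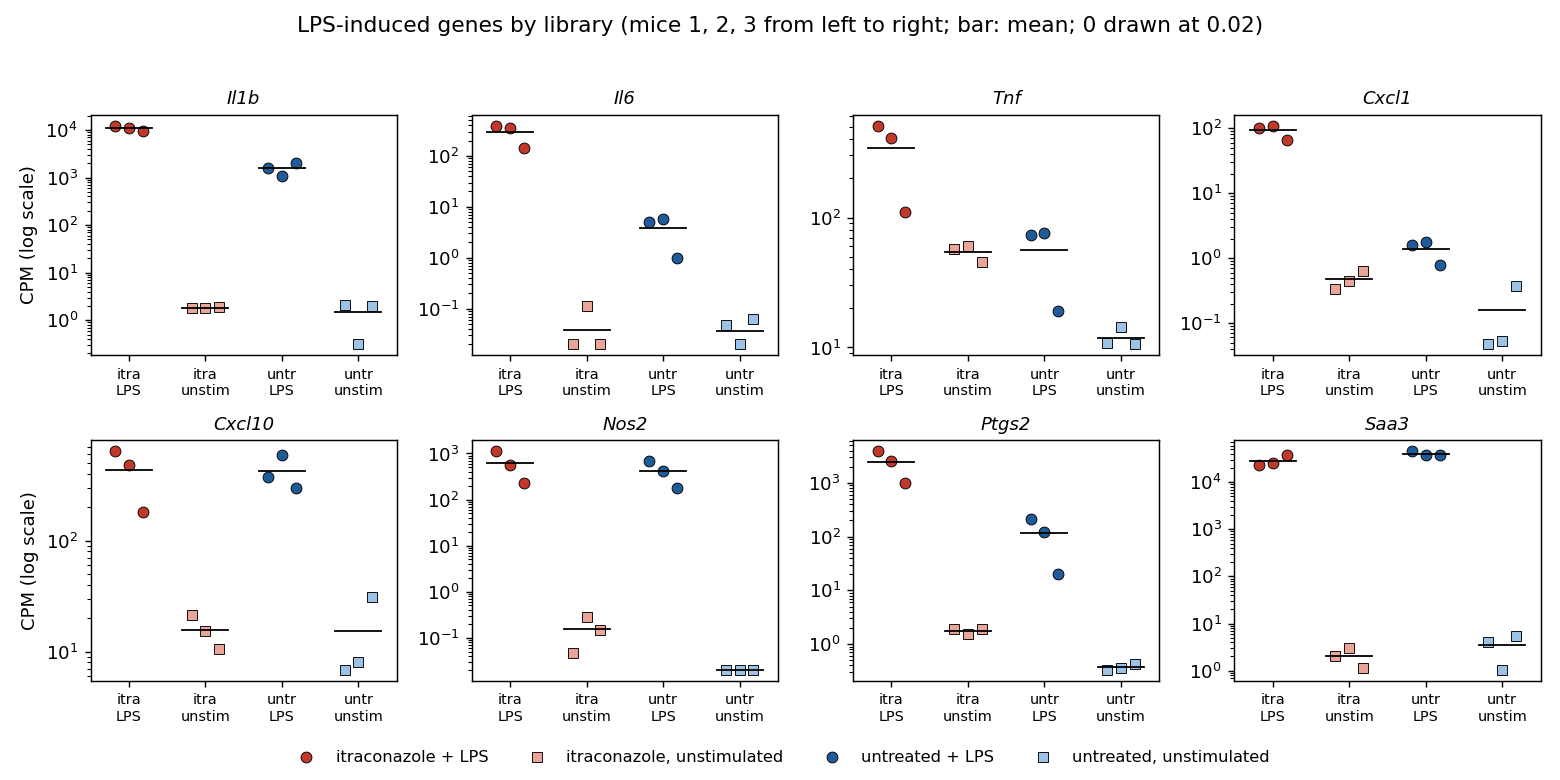
CPM on a log axis for 8 LPS-induced genes, 1 point per library and bars at group means, in itraconazole-pretreated cells with LPS and without, then untreated cells with LPS and without; values of 0 are drawn at 0.02. In itraconazole-pretreated cells Il1b stood at 9690 to 12300 CPM with LPS and at 1.79 to 1.86 without. In all genes shown except Saa3, mouse 3 was the lowest of the LPS libraries of these cells.

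Chemokines that draw neutrophils rose together. All 6 tested were called higher, with a median of 6.72. Cxcl3 was at 955, 828 and 544 CPM with LPS, against 0.142, 0.782 and 0.244 without (11.00 ± 0.63, adjusted p = 8.26e-14). Cxcl1 was at 102, 109 and 65.7 CPM, against 0.332, 0.447 and 0.636 (7.60 ± 0.37, adjusted p = 4.7e-15). Cxcl2 was at 1400, 1140 and 649 CPM, against 21.4, 20.4 and 14.5 (5.83 ± 0.48, adjusted p = 9.16e-11). In all 3 genes the groups were well apart. Cxcl5 was listed at 0 in the unstimulated libraries and at 2.05, 1.61 and 1.89 CPM with LPS, at least 36.5-fold higher. The remaining members, Ppbp and the platelet factor Pf4, had smaller changes of 2.77 and 1.19. The kB-like motif printed above for Cxcl1 was in 3 of the 5 genes of this list that had a window, in 2 of 13 cytokines and in 0 of 7 CC chemokines with one.

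Chemokines that draw monocytes and lymphocytes were mostly higher as well. Of 12 CC chemokines 9 were called higher and 2 lower. Ccl5, a T cell attractant, was at 2910, 2600 and 2610 CPM with LPS and 1.85, 2.01 and 1.81 without (10.48 ± 0.29, adjusted p = 1.01e-19). The monocyte chemokine Ccl2 was at 2220, 1520 and 245 CPM, against 110, 122 and 71.2 (3.71 ± 0.64, adjusted p = 1.62e-05), and its neighbour in function Ccl7 was at 1040, 694 and 98.2 CPM, against 32.9, 34.6 and 19 (4.41). In both genes mouse 3 was below mice 1 and 2 but above every unstimulated library. Ccl9 (-0.39) and Ccl6 (-0.69) were the 2 that fell. All 4 interferon-driven chemokines rose. Cxcl10, the ligand of CXCR3 whose promoter carries both a kB-like and an interferon motif, was at 637, 476 and 183 CPM with LPS and 21.3, 15.2 and 10.6 without (4.78 ± 0.52, adjusted p = 1.39e-08). Cxcl9, another ligand of that receptor, was at 26.7, 23.6 and 14.3 CPM, against 0.38, 0.391 and 0.196 (6.06).

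Receptors for chemokines split, with 3 of 7 higher and 3 lower, beside 33.4% and 33.6% of all genes. Ccrl2, which holds chemerin on the cell surface, was at 303, 184 and 61.7 CPM with LPS, against 8.07, 7.6 and 9.19 (4.46). Ccr1, a receptor for Ccl3 and Ccl5, was at 145, 170 and 230 CPM, against 24.4, 30.4 and 36.3 (2.58). Ccr2, the receptor for Ccl2, fell to 2.48, 3.73 and 11.9 CPM, against 44.8, 48.2 and 74.8 (-3.20 ± 0.41). Cx3cr1, the receptor for fractalkine, fell to 2.05, 3.04 and 18.2 CPM, against 183, 164 and 135 (-4.36 ± 0.51, adjusted p = 5.09e-08). Mouse 3 kept the most of both receptors that fell. Cxcr4, the receptor that holds leukocytes in the marrow, fell by 2.65.

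The sensing machinery changed less than the genes it controls. Of 18 genes of the LPS receptor and its adaptors, 13 were called higher and 1 lower, with a median of 0.72, and under total counts 10 were higher and 3 lower. Cd14, the co-receptor, was at 4770, 4980 and 4650 CPM with LPS and 1290, 1090 and 952 without (2.11 ± 0.16, adjusted p = 1.57e-11). Tlr4 itself was at 142, 142 and 132 CPM, against 145, 131 and 124, with overlapping groups (0.06 ± 0.10, adjusted p = 0.62). The adaptor gene Myd88 rose by 1.13 and the kinase gene Irak2 by 1.71, and Irak1 was the one that fell (-0.30). All 6 NF-kB genes rose, and 5 of them were called higher under total counts with none lower. Among them, Nfkb2 was at 644, 600 and 389 CPM with LPS, against 98.5, 97.7 and 107 (2.43 ± 0.16), and Rela was at 244, 229 and 180 CPM, against 118, 115 and 112 (0.92).

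Brakes on the same pathway rose with it, 16 of 19 called higher and 1 lower (3 lower under total counts), with a median of 2.01. Socs3, an inhibitor of cytokine receptor signalling, was at 1680, 1560 and 1240 CPM with LPS and 3.89, 3.07 and 3.42 without (8.75 ± 0.30, adjusted p = 5.83e-18). Socs1, a related inhibitor, was at 32.8, 44.4 and 31.5 CPM, against 0.807, 0.503 and 0.538 (5.86). Tnfaip3, which encodes the ubiquitin editor A20, was at 636, 571 and 320 CPM, against 32.1, 39.3 and 54.5 (3.60). All 3 had groups well apart. Il1rn, the decoy ligand of the receptor for Il1a and Il1b, rose by 4.93, Irak3 by 3.33 and Nfkbia, the inhibitor of NF-kB, by 2.53. Sigirr, an inhibitory receptor of the same family, was the member that fell, to 0.311, 0.344 and 1.54 CPM, against 7.69, 6.54 and 6.11 (-3.19). Tnip3, a partner of A20, was at 176, 160 and 169 CPM with LPS and 178, 198 and 180 without, with no call (-0.14 ± 0.19, adjusted p = 0.525).

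The interferon branch rose as a group. All 36 interferon-stimulated genes tested were called higher with a median of 2.46, and the smallest change was 1.08, in Oas2. Isg15, the ubiquitin-like antiviral modifier, was at 792, 664 and 364 CPM with LPS and 28.2, 17.7 and 12.3 without (4.97 ± 0.38, adjusted p = 2.44e-11). Rsad2, an antiviral enzyme, was at 2940, 1940 and 495 CPM, against 72.2, 49.9 and 36 (5.09 ± 0.55). Irf7, the factor that amplifies interferon production, was at 1750, 1580 and 1330 CPM, against 111, 82.7 and 62.2 (4.18 ± 0.27, adjusted p = 1.29e-12). Mouse 3 was lowest in all 3 of these genes with LPS and also lowest without it. Ifnb1, the interferon itself, was almost undetected at this time, at 0.248, 0.115 and 0.114 CPM with LPS (8 reads in the 3 libraries) and 0 without, at least 3.11-fold higher. All 13 tested GBP and IRG genes, the interferon-induced GTPases that attack the vacuoles of microbes, rose with a median of 3.18, and Gbp2 was at 584, 512 and 258 CPM, against 16.4, 15.1 and 11.9 (4.97). Reads of Ifit, Oas, Gbp and Irg paralogs can be split between near-identical copies by the counting, so values of single members are uncertain.

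Among antigen presentation genes, those of class I rose as a group. All 16 genes of MHC class I loading and the immunoproteasome were called higher with a median of 1.58, among them the peptide transporter Tap1 (2.11), B2m (0.95) and H2-T23, at 843, 771 and 688 CPM with LPS and 176, 160 and 171 without (2.18). Under total counts 15 of the 16 were higher. Of 10 class II genes 3 were higher and 1 lower, beside 33.4% and 33.6% of all genes, with a median of -0.15. H2-Ab1, a class II beta chain, was at 81.4, 85 and 85 CPM, against 5.84, 8.04 and 7.68 (3.54 ± 0.36, adjusted p = 4.38e-09). H2-Aa, the alpha chain that pairs with it, fell to 1.12, 2.98 and 5.38 CPM, against 8.16, 12 and 9.19 (-1.62 ± 0.41, adjusted p = 0.00129). The pair thus moved in opposite directions, each with groups that did not overlap. H2-Eb1 was not called, but with the mouse as a block it was called lower (-0.60, adjusted p = 0.0108). Of 12 costimulation and checkpoint ligands 8 were higher and 2 lower, beside the same shares of all genes. Cd274, the checkpoint ligand PD-L1, was at 2450, 1950 and 1210 CPM, against 14.5, 14.7 and 17.3 (6.91 ± 0.36, adjusted p = 1.66e-14), Cd40 rose by 2.53, and Vsir (-1.15) and Cd83 (-1.26) fell.

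Enzymes that make inflammatory mediators had some of the widest ranges. Ptgs2, the inducible cyclooxygenase, was at 3860, 2600 and 1010 CPM with LPS and 1.9, 1.51 and 1.91 without (10.45 ± 0.75, adjusted p = 6.52e-12). Ptges, which turns its product into prostaglandin E, was at 1610, 1550 and 1030 CPM, against 2.94, 2.18 and 2.25 (9.14 ± 0.37). The constitutive enzyme gene Ptgs1 fell to 0.932, 0.918 and 1.89 CPM, against 23.5, 26 and 24.4 (-4.30). Hpgds, which makes prostaglandin D, fell by 2.82, and Hpgd, which breaks prostaglandins down, had 3 reads with LPS and 887 without (254-fold lower, counting interval 86.6 to 1230). Of the 12 genes on that list 7 were higher and 4 lower, beside 33.4% and 33.6% of all genes, so the lower count was near that share. Of 10 genes of nitric oxide and arginine metabolism 9 were higher and none lower, with a median of 5.01, and under total counts 7 were higher and 1 lower. Nos2, the inducible nitric oxide synthase, was at 1110, 568 and 228 CPM, against 0.0475, 0.279 and 0.147 (11.99 ± 0.82, adjusted p = 8.53e-12). Acod1, which makes itaconate, was at 7560, 6840 and 4030 CPM, against 29.3, 15.6 and 7.73 (8.45 ± 0.63). Arg1, which competes with nitric oxide synthase for arginine, was at 121, 111 and 255 CPM, against 0.475, 0.559 and 1.47 (7.59 ± 0.77, adjusted p = 3.82e-09), with mouse 3 highest in both groups.

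Acute-phase and iron-withholding genes followed, with 14 of 17 called higher and 1 lower and a median of 6.63. Saa3, the serum amyloid made by macrophages, was at 23500, 25900 and 37000 CPM with LPS and 2.09, 3.07 and 1.12 without (13.76 ± 0.72, adjusted p = 1.45e-14). Lcn2, which withholds iron from bacteria by binding their siderophores, was at 2220, 2140 and 1480 CPM, against 0.759, 0.894 and 0.538 (11.38 ± 0.38, adjusted p = 2.45e-18). Saa1 was at 6.09, 6.14 and 8.98 CPM, against 0 in all 3 libraries, at least 141-fold higher, and its near-identical copies make its own level uncertain. The haptoglobin gene Hp was at 231, 266 and 533 CPM, against 0.475, 0.503 and 0.196 (9.77). Saa3, Saa1 and Hp were highest in mouse 3, unlike the cytokines. The iron exporter gene Slc40a1 fell by 1.29, and the ferritin gene Fth1 rose by 2.46. Serpinb2, an inhibitor of plasminogen activators, was at 28, 62 and 76.9 CPM, a ratio of 1680 to its unstimulated level with an interval of 463 to 13800. Lad1, an anchoring filament gene, was at 6.46, 7.8 and 3.26 CPM, against 0 in all 3, at least 115-fold higher.

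Of 12 inflammasome genes 8 rose and 2 fell, beside 33.4% and 33.6% of all genes. Nlrp3, the sensor, was at 304, 300 and 228 CPM with LPS and 121, 125 and 99.5 without (1.27 ± 0.18). Pycard, the adaptor that joins sensor and caspase, fell to 15.3, 20.3 and 40.7 CPM, against 61.3, 67.6 and 66.2 (-1.35 ± 0.23, adjusted p = 1.55e-05). The caspase gene Casp1 rose by 1.24, and Nlrp1b fell by 2.76. Sensor and adaptor therefore moved in opposite directions, and the groups of neither gene overlapped.

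Glycolysis genes mostly rose, with 17 of 22 called higher and 3 lower (median 1.09). Pfkfb3, whose product makes the main activator of glycolysis, was at 738, 675 and 895 CPM with LPS and 21.1, 23.4 and 25.2 without (5.05 ± 0.19, adjusted p = 1.55e-17). The glucose transporter gene Slc2a1 rose by 2.41 and the hexokinase gene Hk2 by 2.07, while Slc2a3, Aldoc and Pfkm fell by 1.21, 1.02 and 0.87. Of 28 nuclear genes of oxidative phosphorylation 6 were higher and 9 lower, beside 33.4% and 33.6% of all genes, with a median of -0.08. Under total counts 1 was higher and 19 lower. Stress-response genes mostly rose: 17 of 23 ATF4 targets were higher and 3 lower, 13 of 17 NRF2 targets were higher and 1 lower, and 14 of 20 genes of the unfolded protein response were higher and 1 lower (8 and 2 under total counts). Slc7a11, the cystine importer shared by the ATF4 and NRF2 programmes, was at 354, 339 and 227 CPM, against 3.13, 1.84 and 2.44 (6.94 ± 0.47, adjusted p = 2.04e-12). Atf4 itself was at 996, 910 and 759 CPM, against 303, 271 and 273 (1.65), Hmox1, which degrades heme, rose by 3.25, and the endoplasmic reticulum chaperone gene Hspa5 rose by 1.03.

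The cell cycle programme fell throughout. All 25 mitosis genes tested were called lower, with a median of -5.83, and so were all 27 replication genes, with a median of -3.39. Ccna2, the cyclin of S and G2 phase, was at 0.248, 0.172 and 0.229 CPM with LPS and 185, 188 and 162 without (-9.66 ± 0.23, adjusted p = 5.65e-21). Plk1, a mitotic kinase, was at 0.248, 0.344 and 0.286 CPM, against 80.9, 76.6 and 65.7 (-7.97 ± 0.21). Ccnb2, a mitotic cyclin, was at 0.87, 0.172 and 0.4 CPM, against 88.3, 92.6 and 82.7 (-7.53 ± 0.27, adjusted p = 8.4e-18). The windows of Plk1 and Ccnb2 with their CHR cores are printed above. Cenpf, a kinetochore gene, was at 0 in all 3 LPS libraries and at 53.9, 59.9 and 57.9 CPM without, at least 971-fold lower. The kinase gene Pbk was also at 0 with LPS, against 54, 50.5 and 47.8, at least 864-fold lower. Top2a, the topoisomerase that untangles sister DNA, kept a low level of 5.71, 5.8 and 6.29 CPM, against 428, 413 and 363 (-6.08 ± 0.11, adjusted p = 3.94e-23). Mki67, the common proliferation marker, fell less, to 48.3, 36.9 and 13.7 CPM, against 334, 365 and 286 (-3.32 ± 0.30), and mouse 3 was the lowest in both groups.

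Genes of S phase were as uniform. Rrm2, a subunit of ribonucleotide reductase, was at 0.808, 0.689 and 1.03 CPM with LPS and 151, 148 and 127 without (-7.39 ± 0.21, adjusted p = 1.03e-19). Pclaf, a partner of the DNA clamp, was at 0.0621, 0.115 and 0.114 CPM, against 131, 126 and 102 (-10.20 ± 0.33, adjusted p = 1.95e-18). Mcm5, part of the replicative helicase, was at 5.03, 4.07 and 4.46 CPM, against 184, 172 and 142 (-5.20). The clamp gene Pcna kept more, at 86.3, 82.7 and 76.7 CPM, against 209, 209 and 232 (-1.40), and E2f1 had the smallest change of the list (-0.47). Several further genes of this kind were at 0 or nearly so with LPS: Neil3 was at least 533-fold lower, Ankle1 at least 462-fold, Depdc1b at least 219-fold and Sapcd2 at least 210-fold. E2f7 was 1260-fold lower (interval 226 to 49900), Esco2 1250-fold (223 to 49200), Pimreg 1210-fold (414 to 5880) and Kif18b 1070-fold (295 to 8820). Myc, a driver of growth, fell to 4.53, 5.22 and 3.55 CPM, against 33.9, 37.6 and 33.3 (-2.98).

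**Figure D2:**
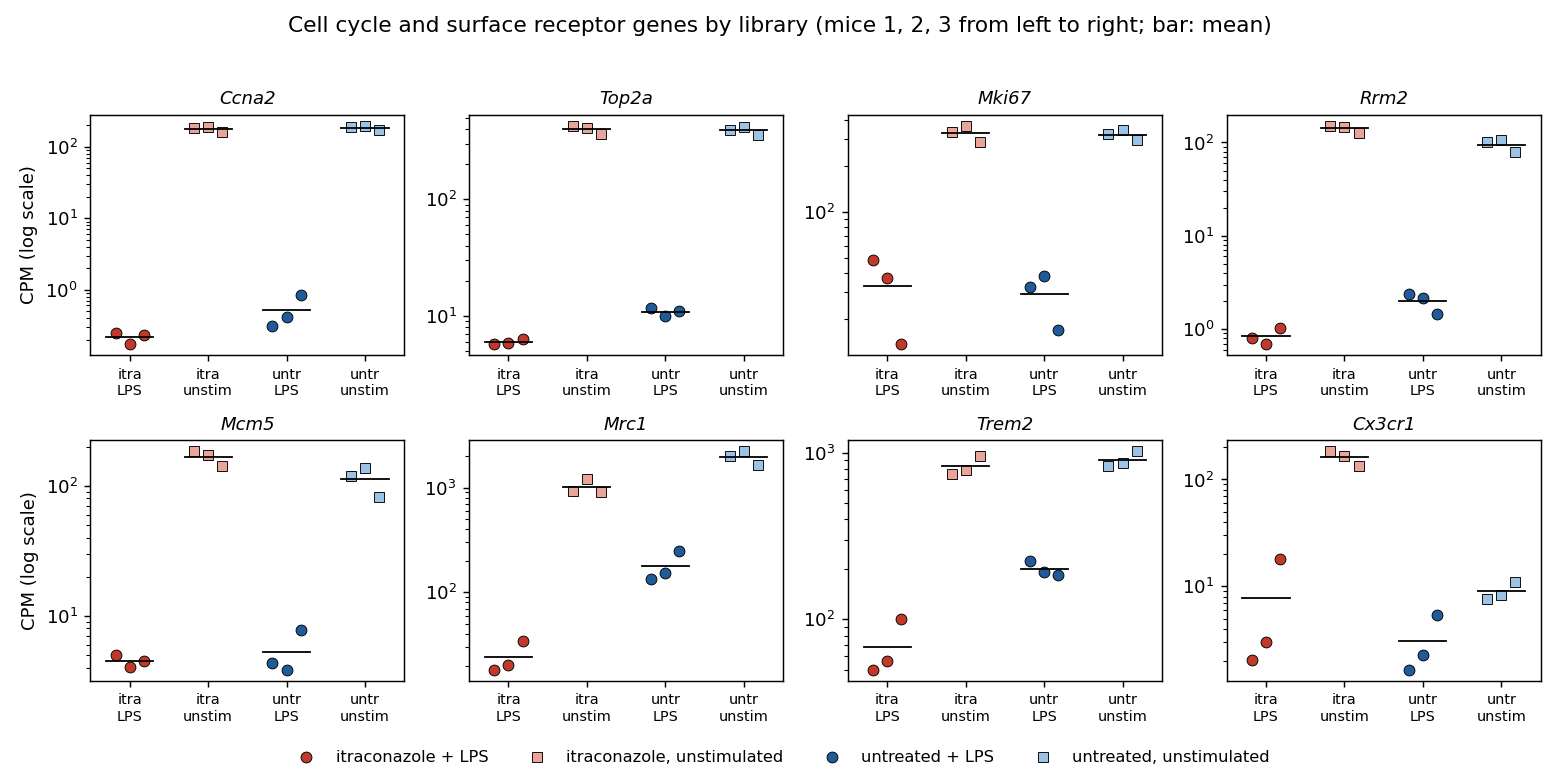
CPM on a log axis for 8 genes lowered with LPS, 1 point per library and bars at group means, in itraconazole-pretreated cells with LPS and without, then untreated cells with LPS and without. In itraconazole-pretreated cells Ccna2 stood at 0.172 to 0.248 CPM with LPS and 162 to 188 without, and Mrc1 at 18.2 to 34.3 with LPS and 904 to 1200 without.

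Surface receptors for clearing debris fell with the cell cycle genes, 12 of 15 lower and 2 higher, with a median of -1.65. Mrc1, the mannose receptor, was at 18.2, 20.1 and 34.3 CPM with LPS and 926, 1200 and 904 without (-5.38 ± 0.31, adjusted p = 1.19e-13). Trem2, a lipid-sensing receptor, was at 49.8, 56.5 and 100 CPM, against 750, 787 and 954 (-3.59 ± 0.23, adjusted p = 8.37e-13). Gas6, the bridge between dying cells and their receptors, was at 36.6, 30.3 and 40 CPM, against 466, 525 and 524 (-3.83 ± 0.14). The 2 that rose were scavenger receptors for modified lipoproteins and bacteria: Marco was at 409, 443 and 416 CPM, against 2.37, 2.18 and 1.42 (7.73 ± 0.38, adjusted p = 5.63e-15), and Msr1 was at 1130, 1180 and 1240 CPM, against 330, 338 and 263 (1.93 ± 0.26). Of 15 lineage transcription factors 5 were higher and 6 lower, beside 33.4% and 33.6% of all genes. Pparg, a lipid-sensing factor, fell to 4.29, 3.56 and 2 CPM, against 47.7, 41.2 and 52.8 (-3.85 ± 0.21), Maf fell by 1.65, Cebpb rose by 2.92, and the lineage-defining factor Spi1 was not called (0.02).

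Other lists had calls in both directions, beside 33.4% of all genes called higher and 33.6% lower. Of 26 lysosome genes 8 were higher and 10 lower (6 and 15 under total counts), of 17 immediate early genes 8 and 5, of 18 ribosome biogenesis genes 3 and 6 (1 and 9 under total counts), of 14 clock genes 6 and 3, of 11 genes of the IL-10 axis 7 and 2, and of 8 interferon regulatory factors 3 and 1 (3 and 3 under total counts). Among clock genes the period gene Per2 was at 15.1, 16.8 and 13.8 CPM with LPS and 2.75, 2.96 and 2.93 without (2.40), while the clock output factor Dbp fell by 2.04.

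**Figure D3:**
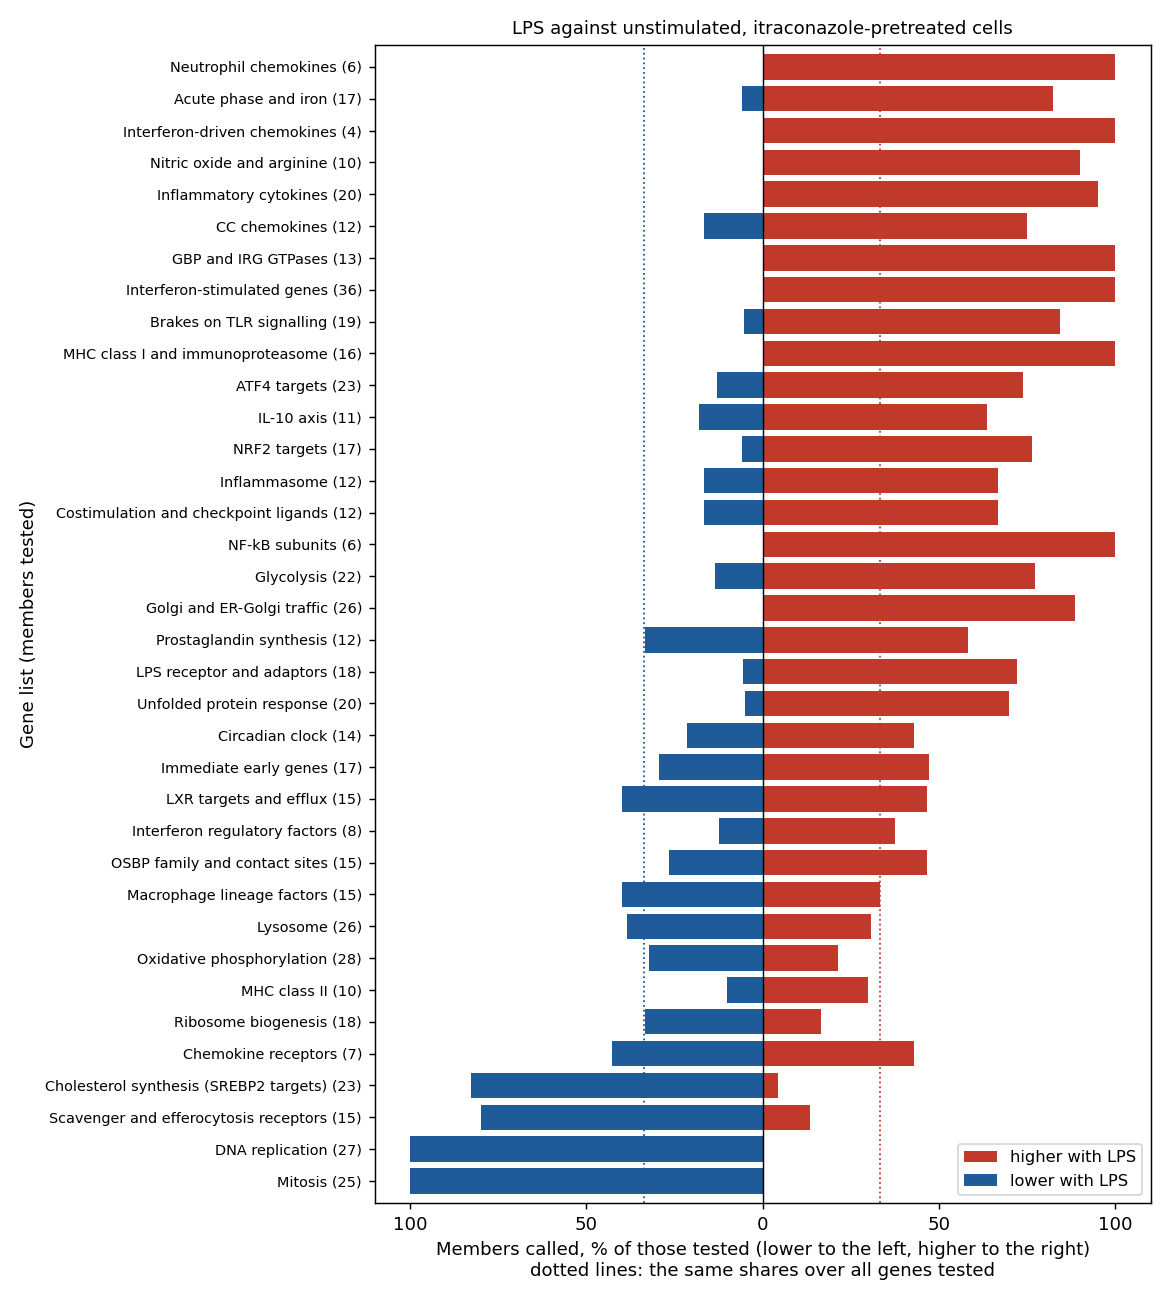
Share of tested members of 36 gene lists called higher (right) or lower (left) with LPS in itraconazole-pretreated cells, in percent, ordered by median log2 fold change, with the number tested in brackets; dotted lines mark the shares over all genes, 33.4% higher and 33.6% lower. All 36 interferon-stimulated genes lie on the higher side and all 25 mitosis and 27 replication genes on the lower side.

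Cholesterol synthesis fell in itraconazole-pretreated cells. Of 23 SREBP2 targets 19 were called lower and 1 higher, with a median of -0.86, and under total counts 21 were lower and 1 higher. Without the LPS library of mouse 3 the counts were 17 and 1. Cyp51, the lanosterol demethylase that is the mammalian counterpart of the fungal enzyme targeted by azoles, was at 13.7, 14.6 and 16.3 CPM with LPS and 50.1, 55.3 and 60.4 without (-1.89 ± 0.18, adjusted p = 9.81e-10). Msmo1, the next demethylase in the pathway, was at 30.1, 37.1 and 39.7 CPM, against 108, 113 and 112 (-1.64 ± 0.17, adjusted p = 5.62e-09). Dhcr7, which acts at the last step, was at 5.53, 5.39 and 9.78 CPM, against 34.8, 34.9 and 31.5 (-2.29 ± 0.19). All 3 genes had tight and separate groups. Stard4, a sterol carrier, was at 8.32, 10 and 16.9 CPM, against 59.6, 65 and 57.9 (-2.37), and Idi1, an isomerase of the mevalonate arm, was at 1.55, 2.58 and 3.2 CPM, against 13.1, 14.9 and 11.9 (-2.43 ± 0.27). Mvd, another enzyme of that arm, was the member that rose, to 56.7, 53.5 and 49.2 CPM, against 24.9, 20.7 and 22.2 (1.23 ± 0.16, adjusted p = 1.54e-07). Hmgcs1, whose window is printed above, fell slightly, to 55.5, 55.2 and 45.3 CPM, against 69.1, 74.9 and 77.9 (-0.51 ± 0.13, adjusted p = 0.00154).

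Genes of Golgi structure and traffic rose modestly and together, 23 of 26 higher and none lower, with a median of 0.93 (22 higher and 1 lower under total counts). Sec23a, a subunit of the coat that carries cargo out of the endoplasmic reticulum, was at 193, 183 and 157 CPM with LPS and 64.5, 60.1 and 62.7 without (1.51 ± 0.09, adjusted p = 1.63e-13). Arf4, a small GTPase of the Golgi, was at 465, 443 and 345 CPM, against 153, 157 and 159 (1.42 ± 0.10, adjusted p = 2.29e-12). Copb2, a subunit of the coat for the return route, was at 555, 516 and 455 CPM, against 252, 238 and 236 (1.07 ± 0.08). Kdelr2, which retrieves chaperones from the Golgi, was at 213, 202 and 191 CPM, against 108, 104 and 105 (0.94 ± 0.08). In all 4 the groups were well apart and mouse 3 the lowest with LPS. Tmed10, a cargo receptor, was not called (-0.03, adjusted p = 0.805). Of 15 OSBP family and contact site genes 7 were higher and 4 lower (5 and 7 under total counts), beside 33.4% and 33.6% of all genes. Osbp, the carrier that itraconazole binds, was at 177, 152 and 137 CPM, against 89, 88.9 and 86.3 (0.82 ± 0.09, adjusted p = 6.93e-09), and Osbpl3 was at 335, 342 and 243 CPM, against 53.7, 53.3 and 60 (2.46 ± 0.21). Of 15 LXR targets and efflux genes 7 were higher and 6 lower (5 and 6 under total counts), beside the same shares of all genes. The efflux pump gene Abca1 was at 807, 908 and 1070 CPM, against 272, 309 and 336 (1.60). Ch25h fell to 7.58, 5.91 and 2.63 CPM, against 21.4, 14.6 and 4.84, with overlapping groups in which mouse 3 was the lowest of each (-1.34 ± 0.51, adjusted p = 0.0237). That call was lost without the LPS library of mouse 3 (-1.01, adjusted p = 0.106), the unstimulated library of mouse 1 (-0.85, adjusted p = 0.18) or that of mouse 2 (-1.29, adjusted p = 0.0529), and also with DESeq2 (-1.36, adjusted p = 0.0513) and with only the groups compared (-1.34, adjusted p = 0.0666).

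The response of itraconazole-pretreated cells was then set against that of untreated cells (LPS at 10 ng/mL, no pretreatment), which shares no library with it but comes from mice of the same numbers. Of 13173 genes, 3467 (26.3%) had a response that differed, 1601 more positive with itraconazole (12.2%) and 1866 more negative (14.2%). In untreated cells LPS called 8024 genes (60.9%). Of the genes called in each arm, 6175 moved the same way in both, which is 70.0% of the itraconazole calls and 77.0% of the untreated calls, and 232 moved in opposite directions. Among the 3467 with a called difference, 445 had a larger rise with itraconazole, 216 a smaller rise, 659 a larger fall and 148 a smaller fall, and in 1729 LPS was called in only one of the arms. Without the LPS library of itraconazole mouse 3 there were 4378 genes with a called difference, 1993 more positive and 2385 more negative. The total was 4016 with the mouse as a block and 2292 when only the groups compared were fitted (1076 more positive and 1216 more negative). A difference of responses can come from the level without LPS, the level with LPS or both. Of the 3467, 2226 were called different between itraconazole and untreated cells with LPS only, 417 without LPS only, 730 in both states and 94 in neither. Over all genes tested, 54.4% were called different between these cells with LPS and 26.8% without. A missing call in a state does not show equal levels there.

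**Figure D4:**
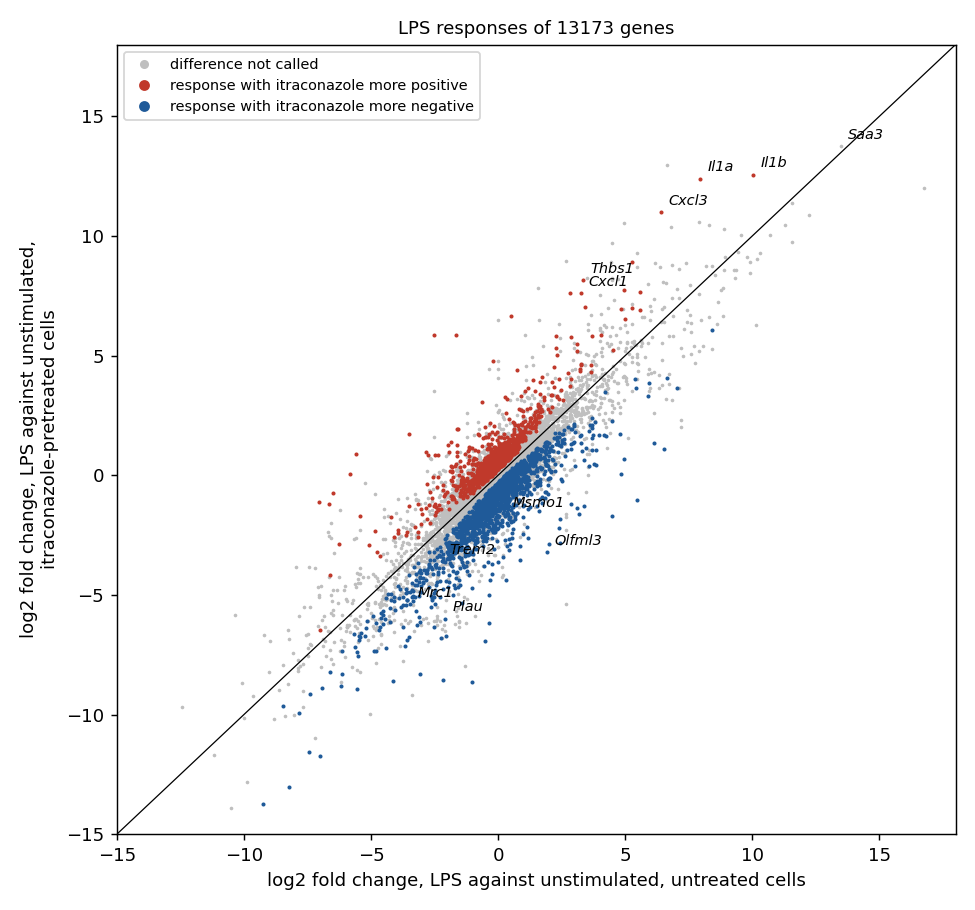
Log2 fold change with LPS in itraconazole-pretreated cells (vertical) against that in untreated cells (horizontal), 1 point per gene for 13173 genes, coloured where the difference of the responses was called; the line marks equal responses. Across these genes Pearson's r was 0.864 and Spearman's rho 0.787, a description over genes that share libraries; Il1a, Cxcl1 and Thbs1 lie above the line and Olfml3, Plau and Mrc1 below it.

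Neutrophil chemokines had larger responses in itraconazole-pretreated cells, with 5 of 6 differences called higher, none lower and a median difference of 3.24. In untreated cells Cxcl1 was at 1.6, 1.8 and 0.79 CPM with LPS and 0.0473, 0.0521 and 0.372 without, so its response in itraconazole-pretreated cells was larger by 4.34 ± 1.05 (adjusted p = 0.00379). Cxcl3 in untreated cells was at 17.3, 7.92 and 2.98 CPM, against 0.189, 0.0521 and 0.0619 (difference 4.58 ± 1.71, adjusted p = 0.0493). Without the unstimulated library of untreated mouse 3 the Cxcl1 difference was 2.88 (adjusted p = 0.236). The Cxcl3 call was lost with the mouse as a block (adjusted p = 0.0566), even counts halved (0.126), only the groups compared (0.108) or only wild-type libraries fitted (0.0559), and without any 1 of 8 libraries: itraconazole mice 1 and 2 with LPS and 1 and 3 without, and untreated mouse 2 with LPS and mice 1, 2 and 3 without (3.72 to 4.91, adjusted p = 0.0613 to 0.348). Cxcl2 was at 48.1, 33.7 and 17.1 CPM, against 2.41, 1.98 and 3.28 (difference 2.13 ± 0.61, adjusted p = 0.0114). With LPS, all 6 genes of the list were higher in itraconazole-pretreated than in untreated cells, with a median of 5.53, beside 26.5% of all genes. Among 20 cytokines 4 differences were higher and 2 lower, beside 12.2% and 14.2% of all genes. Il1b in untreated cells was at 1590, 1100 and 2030 CPM with LPS and 2.13, 0.313 and 2.04 without (difference 2.53 ± 0.53, adjusted p = 0.00112). Csf1 was at 27.7, 25.1 and 8.87 CPM, against 9.69, 9.59 and 7.8 (difference 2.45 ± 0.44, adjusted p = 0.000304), and Osm, a relative of Il6, was at 21.9, 15.8 and 9.3 CPM, against 7.42, 7.45 and 7.37, while in itraconazole-pretreated cells it was at 131, 99.5 and 48.9 CPM, against 8.45, 8.83 and 7.19 (difference 2.43 ± 0.43, adjusted p = 0.000232). Ebi3 (-0.77) and Tnfsf9 (-1.66) had smaller responses. Tnf, with 72.8, 75.9 and 19.2 CPM, against 10.9, 14.3 and 10.6, in untreated cells, did not differ by a called amount (0.44 ± 0.60, adjusted p = 0.637). Il6 in untreated cells was at 5.04, 5.7 and 0.973 CPM with LPS and 0.0473, 0 and 0.0619 without, and with LPS its level was higher in itraconazole-pretreated cells by 6.25 (adjusted p = 3.98e-10). Its difference of responses was not called by edgeR, and was called with DESeq2 (6.28, adjusted p = 0.000178). DESeq2 gains went both ways. Nos2 (-4.41, adjusted p = 0.017) and Ccl5 (-0.81, adjusted p = 0.0276) were called more negative with itraconazole by DESeq2 and not by edgeR. Among 239 named genes 14 gained a call of this difference with DESeq2 and 2 lost one.

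Of 18 genes of the LPS receptor and its adaptors 4 had a more positive response than in untreated cells and 3 a more negative one (median difference 0.11), beside 12.2% and 14.2% of all genes. The 4 were Cd14, Ticam2 (0.58), Ikbkb (0.54) and Tlr4 (0.42), and the 3 were Lbp (-2.80, at only 0.115 to 0.172 CPM with LPS after itraconazole), Ikbke (-0.84) and Irak1 (-0.43). In untreated cells Cd14 was at 976, 781 and 966 CPM with LPS and 612, 528 and 563 without (0.68), so its response was larger by 1.44 ± 0.22 with itraconazole (adjusted p = 5.16e-05). Of the 6 NF-kB genes 4 had a larger response and none a smaller one, for example Rela (difference 0.82, adjusted p = 0.000516), Nfkb2 (0.87, adjusted p = 0.00468) and Rel (0.81, adjusted p = 0.0055). Among 19 brakes 6 differences were higher and 3 lower. Socs1 had a larger response by 1.80 (adjusted p = 9.16e-05) and Cish, a related inhibitor, by 2.71 (adjusted p = 0.00141). Tnip3 went the other way: in untreated cells it rose to 390, 320 and 234 CPM, against 48.2, 64.3 and 55.3 (2.49), while in itraconazole-pretreated cells it was high already without LPS (difference -2.63 ± 0.27, adjusted p = 7.46e-07). Gpr84, a receptor for medium-chain fatty acids, showed a like pattern, at 24, 29.3 and 36.3 CPM, against 2.27, 2.45 and 2.11, in untreated cells and 63.5, 79.3 and 74.6, against 39.9, 40.2 and 24.4, with itraconazole (difference -2.65 ± 0.58, adjusted p = 0.00181). Plk3, a stress kinase, was at 12.8, 12.5 and 8.27 CPM, against 1.18, 1.67 and 1.73, in untreated cells and at 33.7, 31 and 26, against 14.2, 12.6 and 15.9, with itraconazole (difference -1.80 ± 0.33, adjusted p = 0.000345). Jag1, a Notch ligand, rose in both arms (2.41 with itraconazole and 2.83 in untreated cells) with no called difference (-0.42 ± 0.29, adjusted p = 0.3), from a higher starting level with itraconazole (39.5, 39.2 and 40.2 CPM, against 5.34, 5.58 and 3.41 in untreated cells).

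The interferon branch differed in its starting level. Without LPS, 32 of 36 interferon-stimulated genes were lower in itraconazole-pretreated than in untreated cells and none higher (median -1.05), beside 12.4% of all genes called lower there. With LPS 16 were lower (median -0.44), beside 27.9% of all genes. The LPS response was called larger with itraconazole for 9 of the 36 and smaller for none, with a median difference of 0.59. With the mouse as a block 14 were called larger, and without the LPS library of itraconazole mouse 3, 20. Zbp1, a sensor of nucleic acids, was at 347, 343 and 273 CPM with LPS and 19.7, 13.9 and 12.6 without in itraconazole-pretreated cells, while in untreated cells it was at 463, 464 and 379 with LPS and 37.9, 56.5 and 43.6 without (difference 1.14 ± 0.32, adjusted p = 0.0106). Ifit1 (1.34, adjusted p = 0.0336) and Irf9 (0.67, adjusted p = 0.000992) were among the 9, together with Cmpk2, Herc6, Oasl2, Rtp4, Parp14 and Oas1a. Isg15 missed the threshold (1.19, adjusted p = 0.0571), and with LPS it stood at 665, 740 and 437 CPM in untreated cells (itraconazole against untreated -0.02, adjusted p = 0.975). Of 13 GBP and IRG genes 4 had a larger response, Gbp7 among them (1.75 ± 0.36, adjusted p = 0.000944), and 9 without that mouse 3 library. Cxcl9 had a smaller response (-2.35, adjusted p = 0.0407). That call was lost without any 1 of 8 libraries: itraconazole mice 2 and 3 with LPS and 1 and 2 without, and untreated mice 1 and 2 with LPS and 2 and 3 without (-2.42 to -2.04, adjusted p = 0.0506 to 0.116), with even counts halved (adjusted p = 0.117) and with only the groups compared (0.0925). Cxcl10 did not differ by a called amount (-0.01 ± 0.64, adjusted p = 0.999).

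Some MHC class II genes differed in the other direction. In untreated cells 7 of 10 class II genes were called higher with LPS (30.8% of all genes), with a median of 1.23. The difference was called lower for 3 and higher for none, beside 14.2% and 12.2% of all genes, with a median of -1.07. Without the itraconazole LPS library of mouse 3 it was 5 lower, and with the mouse as a block 6 lower and 1 higher. H2-DMa, which helps load peptide, was at 8.7, 10.6 and 20 CPM with LPS and 11.9, 13.4 and 14.7 without in itraconazole-pretreated cells (-0.03, adjusted p = 0.929), while in untreated cells it was at 50.5, 41.4 and 50.9 with LPS and 13.1, 14.4 and 22.5 without (difference -1.54 ± 0.35, adjusted p = 0.00208). H2-Aa in untreated cells was at 25, 22.1 and 28.8 CPM, against 14.7, 16.5 and 27 (difference -2.01 ± 0.56, adjusted p = 0.00963), and H2-DMb1 had a difference of -1.44 ± 0.33 (adjusted p = 0.00271). H2-Ab1 had no called difference, and with the mouse as a block it was the one called higher (1.06, adjusted p = 0.0315). The adaptor Pycard, which fell with itraconazole, did not fall in untreated cells, which had 100, 92.9 and 117 CPM with LPS and 80, 80.8 and 79.7 without (0.37), a difference of -1.72 ± 0.32 (adjusted p = 0.000439). The sensor Nlrp3 had a larger response with itraconazole by 1.06 ± 0.25 (adjusted p = 0.00302), as in untreated cells it stood at 65.1, 70.6 and 79.4 CPM with LPS, against 56.5, 67.3 and 62.4.

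Many proliferation and scavenger genes fell further with itraconazole than in untreated cells. Of 25 mitosis genes 13 had a more negative response and 1, Kif20a, a less negative one (0.56, adjusted p = 0.0341), with a median difference of -0.88. Without the itraconazole LPS library of mouse 3 there were 10 and none. The Kif20a call was also lost without itraconazole mouse 2 with LPS or mouse 3 without, or untreated mouse 1 or 2 with LPS or mouse 1 without (adjusted p = 0.0577 to 0.104), and with DESeq2 (0.0509), even counts halved (0.0955), no filter on low counts (0.0534) or only the groups compared (0.0626). Mitosis genes near 0 with LPS, Ccna2 among them, have differences that rest on few reads. The Ccna2 call, more negative, was lost with even counts halved (adjusted p = 0.0576) or only the groups compared (0.0596). It was also lost without itraconazole mouse 2 with LPS (0.0827) or untreated mouse 3 with LPS (0.226). Of 27 replication genes 17 were more negative and 1, Tyms, less so (1.54, adjusted p = 0.000512). Aurkb, a mitotic kinase, was at 2.48, 2.24 and 2.63 CPM with LPS and 87.8, 84.6 and 79.8 without in itraconazole-pretreated cells, while in untreated cells it was at 8.42, 7.14 and 8.81 with LPS and 87.7, 84.5 and 83.5 without (difference -1.71 ± 0.15, adjusted p = 2.73e-07). The unstimulated levels of Aurkb in the arms overlapped. Rrm2 in untreated cells was at 2.4, 2.16 and 1.46 CPM, against 100, 105 and 78.6 (difference -1.83 ± 0.28, adjusted p = 5.16e-05), and E2f2, a cell cycle factor, had a difference of -2.37 (adjusted p = 3.96e-06). Mrc1 in untreated cells was at 135, 152 and 248 CPM with LPS and 1980, 2210 and 1640 without (difference -1.93 ± 0.37, adjusted p = 0.000519), and Trem2 was at 225, 192 and 186, against 834, 864 and 1020 (difference -1.42 ± 0.30, adjusted p = 0.00116). Of 15 scavenger genes 6 had a more negative response and none a more positive one. Cx3cr1 was at 1.66, 2.28 and 5.35 CPM with LPS and 7.7, 8.23 and 11 without in untreated cells, so that its larger fall with itraconazole (difference -2.83, adjusted p = 0.00515) started from a higher unstimulated level (4.17, adjusted p = 2.19e-06). When only the groups compared were fitted, that call was lost (-2.82, adjusted p = 0.0534).

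Sterol and Golgi genes differed between the arms. The fall of cholesterol synthesis was not a feature of untreated cells, in which 6 of 23 SREBP2 targets were higher with LPS and 5 lower (median 0.12), and the difference was called lower for 19 and higher for none (median -1.26). Msmo1 in untreated cells was at 215, 207 and 133 CPM with LPS and 158, 189 and 109 without (difference -1.92 ± 0.23, adjusted p = 5.19e-06), and Cyp51 was at 82.2, 83.4 and 57.5, against 101, 113 and 60.9 (difference -1.59 ± 0.24, adjusted p = 5.86e-05). Already without LPS 15 of the 23 genes were lower with itraconazole (median -0.66), and with LPS all 23 were (median -1.65). The desaturase gene Scd1, an LXR and SREBP target, had a response of -2.40 with itraconazole and 0.53 in untreated cells (difference -2.93, adjusted p = 0.000242). Golgi genes rose in both arms, 22 of 26 in untreated cells, and 14 rose more with itraconazole and 1 less, Tmed10 (-0.52, adjusted p = 0.00252). Arf4 in untreated cells was at 197, 178 and 161 CPM, against 122, 127 and 122 (difference 0.89 ± 0.13, adjusted p = 5.16e-05), and Sec23a was at 61.5, 59.4 and 54.8, against 35.3, 38.2 and 36.3 (difference 0.83 ± 0.12, adjusted p = 4.81e-05). Osbp also rose more with itraconazole (0.56, adjusted p = 0.00163).

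The remaining lists were mixed, beside 12.2% of all genes with a difference called higher and 14.2% lower. For 22 glycolysis genes the difference was called lower for 8 and higher for none, with a median difference of -0.41, and 18 of the 22 were higher with LPS in untreated cells. Oxidative phosphorylation had 6 of 28 differences lower and none higher, and 13 lower without the itraconazole LPS library of mouse 3. Of 14 clock genes 5 had a larger response and none a smaller one (8 without that library), such as the clock repressor Ciart (1.90, adjusted p = 0.00415). Prostaglandin genes had 1 difference higher and 4 lower of 12, and Ptgs2, at 213, 121 and 20.1 CPM in untreated cells with LPS, missed the threshold (2.16 ± 1.09, adjusted p = 0.147). It was called with DESeq2 (2.16, adjusted p = 0.0232) and without the LPS library of untreated mouse 1 (2.89, adjusted p = 0.0468).

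Other genes with called differences from untreated cells were taken by the rule for named genes. Thbs1, which encodes the matrix protein thrombospondin, was at 2000, 2560 and 2190 CPM with LPS and 7.55, 8.04 and 7.87 without in itraconazole-pretreated cells, while in untreated cells it was at 94.1, 130 and 443 with LPS and 20.7, 13.1 and 31.4 without (difference 4.81 ± 0.59, adjusted p = 5.52e-06). Ahr, the aryl hydrocarbon receptor, was at 42, 33.2 and 19.8 CPM, against 3.51, 3.02 and 4.79, with itraconazole, and at 5.84, 4.74 and 5.71, against 8.22, 6.2 and 11.1, in untreated cells (difference 3.71 ± 0.38, adjusted p = 7.27e-07). These 2 genes rose with itraconazole from unstimulated levels that were no higher than in untreated cells. Olfml3, a secreted matrix protein, was at 0.497, 0.918 and 3.49 CPM, against 15, 15.1 and 15.5, with itraconazole, and at 0.983, 1.44 and 2.8, against 0.662, 0.313 and 0.372, in untreated cells (difference -5.12 ± 0.73, adjusted p = 2.88e-05). Its difference lay in the unstimulated level (5.05 higher with itraconazole), and with LPS the arms did not differ by a called amount (-0.08, adjusted p = 0.908). Plau, the plasminogen activator urokinase, fell to 16.2, 12.9 and 6.81 CPM, against 461, 699 and 1110, with itraconazole, and to 51.1, 41.3 and 17.9, against 145, 222 and 95.2, in untreated cells (difference -3.92 ± 0.54, adjusted p = 1.9e-05). Samd4, a translational repressor, had 0.435, 0.803 and 0.4 CPM, against 1.33, 1.45 and 2.59, with itraconazole and 0.43, 0.42 and 0.122, against 12.3, 10.9 and 19.8, in untreated cells (difference 3.74, adjusted p = 8.55e-05), so its difference, too, lay in the unstimulated level.

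Responses with itraconazole at 1 µM were next set against those with 25HC at 5 µM, so the concentrations differ. Of 13173 genes 362 (2.75%) had a called difference, 246 more positive with itraconazole (1.87%) and 116 more negative (0.881%), and 244 were more negative with the mouse as a block. The total was unstable to single libraries. It was 754 without itraconazole LPS mouse 3, 207 without itraconazole LPS mouse 1, 179 without itraconazole LPS mouse 2, 183 and 186 without unstimulated itraconazole mouse 2 or 3, 132 without 25HC LPS mouse 1, and 200, 154 and 513 without unstimulated 25HC mouse 1, 2 or 3. Unstimulated 25HC mouse 3 holds odd and even counts (46.13% odd), unlike all 6 itraconazole libraries, and without it 376 were more positive. DESeq2 called 374 more positive and 349 more negative, and a fit of only the groups compared 80 and 69. None of the 20 cytokines, 6 neutrophil chemokines or 36 interferon-stimulated genes had a called difference by edgeR. At an unadjusted p under 0.05 there were 2, 0 and 5, all more negative with itraconazole, and DESeq2 called 2, 0 and 0. In 25HC-pretreated cells, where LPS called 63.9% of all genes, 19, 6 and all 36 of them were higher with LPS. Sterol and Golgi genes did differ. Of 23 SREBP2 targets 9 had a more negative response with itraconazole and none a more positive one (median -0.85), and 13 did with the mouse as a block or without itraconazole LPS mouse 3. Cyp51 in 25HC-pretreated cells averaged 12.3 ± 1.08 CPM with LPS and 17.6 ± 1.63 without (SD, n = 3 each; difference -1.38 ± 0.25, adjusted p = 0.00348), and Msmo1 averaged 39.3 ± 0.466 and 55.3 ± 5.87 (difference -1.15 ± 0.24, adjusted p = 0.00847). For both genes the arms lay far apart without LPS, with the higher level in itraconazole-pretreated cells, and close together with LPS. Itraconazole and 25HC were not tested against each other within a state. Of 26 Golgi genes 15 rose more with itraconazole and none less (median 0.55). Arf4 averaged 290 ± 32.7 CPM with LPS and 197 ± 2.82 without in 25HC-pretreated cells (difference 0.85 ± 0.13, adjusted p = 0.00105), Sec23a 123 ± 12.4 and 77.7 ± 5.91 (0.84 ± 0.12, adjusted p = 0.000616), and Kdelr2 differed by 0.82 ± 0.11 (adjusted p = 0.000214) and Copb2 by 0.82 (adjusted p = 0.00024).

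**Figure D5:**
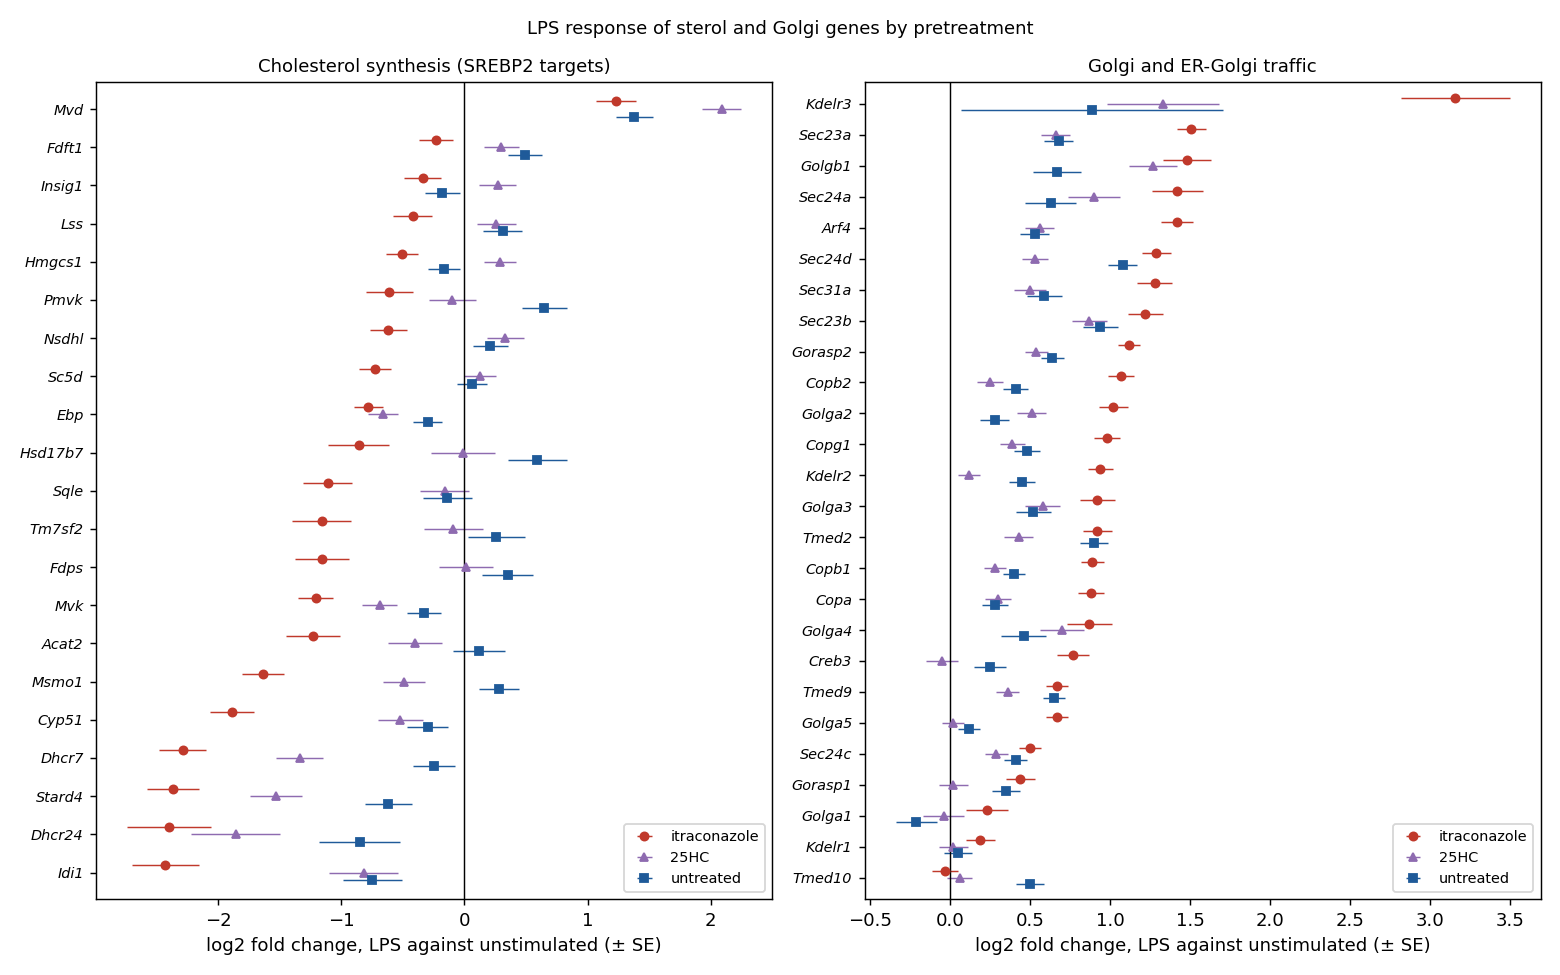
Log2 fold change with LPS ± standard error for 21 of the 23 cholesterol synthesis genes (left) and 26 Golgi genes (right) in itraconazole-, 25HC- and untreated arms, ordered by the itraconazole value. Msmo1 stood at -1.64 with itraconazole, -0.49 with 25HC and 0.28 in untreated cells, and Arf4 at 1.42, 0.56 and 0.53.

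Genes outside these lists differed from the 25HC arm as well. Pck2, the mitochondrial enzyme that makes phosphoenolpyruvate, was at 253, 235 and 198 CPM with LPS and 121, 97.9 and 96.1 without in itraconazole-pretreated cells, while with 25HC it averaged 161 ± 7.5 and 173 ± 13 (SD, n = 3 each; difference 1.22 ± 0.23, adjusted p = 0.00399). Smyd5, a methyltransferase, was at 107, 95.6 and 82.1 CPM, against 53.8, 53.3 and 47.2, and with 25HC averaged 54.1 ± 10.3 and 69.3 ± 10.1 (difference 1.24 ± 0.22, adjusted p = 0.00262). Tsr1, a ribosome assembly factor, was at 70.3, 68.9 and 61.5 CPM, against 40.1, 40 and 40.3 (difference 1.37 ± 0.28, adjusted p = 0.00813), and of 18 ribosome biogenesis genes 2 had a larger response with itraconazole and none a smaller one (5 with the mouse as a block). Tspoap1 was not called with itraconazole, at 9.19, 11.8 and 11.7 CPM, against 10.1, 13.8 and 11.9, and with 25HC averaged 35.8 ± 19.3 with LPS and 6.62 ± 1.27 without (difference -2.56 ± 0.40, adjusted p = 0.000963). Aurkb (-0.85), Top2a (-0.86) and E2f2 (-1.66) fell further with itraconazole than with 25HC, and so did Axl, a receptor for dying cells (-1.42).

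OSW-1 was used at 0.3 µM, again another concentration than itraconazole. Of 13173 genes 3968 (30.1%) had a different response, 2340 more positive with itraconazole (17.8%) and 1628 more negative (12.4%). Under total counts 1746 were more positive and 2516 more negative, so the positive share was 41.0% against 59.0%. The OSW-1 libraries with LPS hold odd and even counts, while all 6 itraconazole libraries hold even counts only. The labels do not say why. Whatever gave this difference in the counts coincides with that group and cannot be told apart from it. Tgfbi, an extracellular matrix protein, was at 652, 1130 and 1930 CPM with LPS and 379, 358 and 398 without in itraconazole-pretreated cells, while with OSW-1 it averaged 5.63 ± 6.47 and 433 ± 133 (SD, n = 3 each; difference 7.96 ± 0.64, adjusted p = 2.37e-09). Arg1 averaged 3.62 ± 5.56 CPM with LPS and 1.06 ± 0.879 without in OSW-1-pretreated cells (difference 5.73 ± 1.12, adjusted p = 0.000406). In OSW-1-pretreated cells LPS called 71.3% of all genes. In the other direction, Cx3cl1, the ligand of Cx3cr1, was at 0.435, 0.115 and 0.515 CPM, against 1.76, 2.18 and 2.93, with itraconazole, and with OSW-1 averaged 62.7 ± 6.59 and 1.83 ± 0.532 (difference -7.78 ± 0.56, adjusted p = 3.21e-10). Fscn1, an actin bundler of mature dendritic cells, was at 3.17, 3.85 and 5.6 CPM, against 0.0475, 0.168 and 0.0978, and with OSW-1 averaged 126 ± 20.2 and 0.117 ± 0.076 (difference -4.72 ± 1.07, adjusted p = 0.00153). Igfbp4 fell to 12.1, 12.2 and 22.4 CPM, against 254, 284 and 271, with itraconazole, and averaged 271 ± 42 and 202 ± 31.6 with OSW-1 (difference -4.54 ± 0.43, adjusted p = 2.46e-08). Among the lists, 6 of 20 cytokines and 15 of 18 ribosome biogenesis genes had a more negative response with itraconazole and none a more positive one, 9 of 15 scavenger genes and 16 of 22 glycolysis genes a more positive one, and 1 of 26 Golgi genes differed.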

How the data were processed

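The starting point was a table of whole-number counts per gene deposited by the authors (30538 genes, 30 libraries in 10 groups of 3). Tools named in the submitters' processing notes are GSNAP for alignment, featureCounts (Subread 1.5.2), FastQC 0.11.9 and edgeR 3.26.8, with GRCm38/mm10 as the build. Libraries were polyA-selected and stranded, per the labels. How strand was set in counting, and which annotation release was used, is not given in the sources used here, so counts of overlapping or antisense genes and of close paralogs (Ifit, Oas, Gbp, Saa, H2, Sirpb1a and Sirpb1c) are uncertain. GENCODE vM21 gave a symbol for 30126 identifiers. In 20 libraries, including all 6 with itraconazole, every count is even. There 2 counts were taken as 1 read for floors and intervals, which cover counting error only, and the tests used the counts as given.

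After TMM scaling, filterByExpr with a minimum of 10 counts kept 13173 genes. One edgeR 4.0.16 quasi-likelihood fit held all 10 groups, so standard errors rest on the spread within all groups. Adjusted p is Benjamini-Hochberg over all tested genes, with a threshold of 0.05. The standard error is the size of the log2 fold change over the square root of F and is approximate for changes near 0. A group without reads was given a floor of 3 reads over its libraries, and 1 to 3 reads a ratio with a 95% interval. Total counts per library limit precision as given in the report. The fit was also run on counts simulated from its own fitted means and spread, with no mouse effect. That run takes the scaling as given, so it cannot test the scaling or the pairing of mice. Software was Python 3.11.15 (numpy 2.4.6, matplotlib 3.10.9, pandas 2.3.3) and R 4.3.3 (DESeq2 1.42.0, limma 3.58.1). Promoter windows are from RefSeq.

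The comparison, the 36 gene lists, the 10 marker lists and the tests were chosen with earlier results of these data known. Named genes were the 12 largest and 12 smallest changes of the LPS response and the 8 largest and 8 smallest of each difference (adjusted p under 0.05, log2 fold change of at least 1, average log2 CPM of at least 2, groups not overlapping for the response), up to 5 members of each list, and a fixed set. Members named as exceptions to their list's count were chosen after their values were seen. Genes below the filter are left out of list counts, and some genes are not reported here. Alternatives were DESeq2, its size factors, total counts, no filter, halved even counts, wild-type libraries only, the compared groups only, the mouse as a block, and each library left out.

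The labels' mouse number was read as the animal, so same-numbered libraries pair. Deviations from group means of the 3 same-mouse pairs of itraconazole libraries correlated at 0.0824, 0.0284 and 0.0581, against -0.0693 to 0.00781 for other pairs, and 24 of 24 wild-type libraries correlated best with their own number. No 2 of 435 library pairs were identical.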

Additional observations from a re-analysis of the deposited data

Results flagged for a closer look

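Genes named by rule are listed here because their response to LPS differed between pretreatments by a test of the difference itself, and nothing was weighed for any of them. Against untreated cells, the response with itraconazole was more positive for Thbs1 (4.81), Cxcl3 (4.58), Il1a (4.44), Cxcl1 (4.34), Samd4 (3.74), Ahr (3.71), Hid1 (3.66) and Itgb8 (3.64), as log2 differences. It was more negative for Olfml3 (-5.12), Plau (-3.92) and Pcp4l1 (-3.48). Il1a in untreated cells was at 160, 128 and 48.4 CPM with LPS and 0.378, 0.0521 and 0.991 without, and its call was lost without the unstimulated library of untreated mouse 3 (3.43, adjusted p = 0.102 by edgeR). The Itgb8 call was lost without the unstimulated library of untreated mouse 2 (3.14, adjusted p = 0.0888 by edgeR). In itraconazole-pretreated cells Pcp4l1 was at 0.559, 0.459 and 1.2 CPM with LPS and 91.3, 95.4 and 132 without. Another 4 genes picked by the rule were left out because a group held at most 3 reads.

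Against 25HC-pretreated cells, at another concentration, the response was more positive for Tsr1 (1.37), Trmt61a (1.34), Gadd45a (1.27), Smyd5 (1.24), Qtrt2 (1.24), Pck2 (1.22) and Rpp38 (1.04). It was more negative for Il4i1 (-2.99), Tspoap1 (-2.56), Psrc1 (-2.01), Cenpa (-1.91), Rdm1 (-1.89), Dusp2 (-1.67), E2f2 (-1.66) and Idi1 (-1.61). Il4i1 was at 18, 21.5 and 14.2 CPM with LPS and 2.61, 2.68 and 12.8 without in itraconazole-pretreated cells, with unstimulated mouse 3 close to the LPS libraries.

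Against OSW-1-pretreated cells, whose LPS libraries hold odd and even counts, the response was more positive for Tgfbi (7.96), Nxpe5 (6.79), Gm5150 (6.23), Sirpb1c (6.13), Sirpb1a (5.99) and Arg1 (5.73). It was more negative for Cx3cl1 (-7.78), Ccl22 (-7.39), Fscn1 (-4.72), Igfbp4 (-4.54) and Gm13889 (-4.15). Sirpb1a and Sirpb1c are near-identical copies whose reads may be split between them.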

How the results depend on the processing

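Calls of the LPS response in itraconazole-pretreated cells were 4094 to 4383 higher and 4016 to 4479 lower with any 1 library left out, and 2784 were higher under total counts. Of 239 named genes 12 lost that call in at least 1 alternative, and none turned direction. For the difference from untreated cells the ranges were 1134 to 1993 more positive and 1369 to 2385 more negative with 1 library left out, 1216 were more negative when only the groups compared were fitted, and 38 of 239 named genes lost a call in at least 1 alternative, while others gained one. The difference from 25HC moved most. It was 96 to 426 more positive and 36 to 328 more negative with 1 library left out, 374 and 349 with DESeq2, 80 and 69 with only the groups compared, and 244 more negative with the mouse as a block. The share more positive was 51.7% with DESeq2, 53.7% with only the groups compared and 56.5% without itraconazole LPS mouse 3, against 68.0%. For OSW-1 the ranges were 1994 to 2344 and 1277 to 1568, and total counts gave 2516 more negative, a positive share of 41.0% against 59.0%. The cause of these shifts was not tested. With the mouse as a block, 0 named genes lost and 1 gained a call of the LPS response, and 3 lost and 12 gained one of the difference from untreated cells. Genes with few reads in a group are limited by depth. List counts without itraconazole LPS mouse 3, under the block and under total counts, the counts of 3 lists against 25HC at an unadjusted p and with DESeq2, and the sterol element-like motif, were added after seeing the data.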
